A study of Homo sapiens with 6 samples.

Results

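The mRNAs of the mitochondrial ribosomal proteins were examined in HT29 cells, an established human colorectal adenocarcinoma line, after knockdown of FITM2. Members were the protein-coding genes whose symbol begins with MRPL or MRPS followed by a digit, which gave 78 of the 58978 genes in the count table. RNA-seq libraries came from 3 samples labelled shFITM2, with a short hairpin RNA against FITM2, and 3 labelled shCTRL, with a control hairpin and the genotype label WT. All 6 carry the label untreated. FITM2 is a membrane protein of the endoplasmic reticulum that acts in lipid droplet formation, and the series title links lipid droplets to IFNGR1, a chain of the interferon-gamma receptor. The labels do not say whether the replicates were separate cultures, how many hairpins were used or whether cells were clonal, so p-values measure only the spread among these libraries, which may be technical.

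The mitochondrial ribosome, or mitoribosome, translates the few mRNAs of the mitochondrial genome, all of which encode subunits of the oxidative phosphorylation complexes. Its rRNAs are made in the mitochondrion, whereas every one of its proteins is encoded in the nucleus, made in the cytosol and imported. Some of the proteins have counterparts in bacterial ribosomes, and others were gained by the mitochondrial lineage.

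The shFITM2 libraries held 16964075 to 18263911 counts and the shCTRL libraries 17176487 to 18855731. FITM2 had 4.83, 5.98 and 4.95 CPM (counts scaled to the library size, with TMM factors) in shFITM2, against 13.2, 10.5 and 10.4 CPM in shCTRL, with no overlap. Its log2 fold change was -1.12 ± 0.157 (SE, edgeR quasi-likelihood test, adjusted p = 0.000242). An exact two-sided permutation test gave p = 0.1, the smallest that 20 arrangements allow. Of 11 colon epithelial markers, 9 exceeded 1 CPM in every library, while CDX1 and CDX2 reached only 0.23 and 0.649 CPM in their lowest library. Of 8 markers of immune, stromal, endothelial and liver cells, 2 had no count and the highest value in any library was 2.52 CPM (COL1A1). Counts followed the GC content of the transcripts differently in the hairpin groups. For each 10 points of GC, log2 counts relative to the mean of all libraries changed by 0.26, 0.23 and 0.18 in shFITM2, against -0.27, -0.34 and -0.06 in shCTRL, so the shCTRL 3 library stood apart from the other two of its group. Each comparison is therefore given from a model with the group alone and from the same model with an offset that takes out the GC trend of every library. A trend with GC content that arose in the cells would be taken out as well, and it cannot be told apart from one that arose in the libraries.

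The 78 genes lie on 21 chromosomes. They comprise 51 genes of the large subunit, 26 of the small subunit, and MRPS36, which carries the name but is now known as KGD4, a part of the 2-oxoglutarate dehydrogenase complex. The large subunit group includes MRPS30 and MRPS18A, whose proteins sit there despite their symbols. MRPS24 alone failed the expression filter, with 0.274, 0.0575 and 0.059 CPM in shFITM2, against 0.424, 0.162 and 0.293 CPM in shCTRL. These values overlap and stand on a mean of 3.8 counts per library, and 23.2% of its exon bases also belong to the readthrough gene URGCP-MRPS24. Rows of 77 other genes with similar names, 75 of them pseudogenes, held 0.175% to 0.246% as many reads as the members. How reads matching several places were counted is not given in the sources used here.

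Together the members took 0.417%, 0.416% and 0.407% of all counts in shFITM2, against 0.425%, 0.428% and 0.423% in shCTRL. Summed over members, the level in shFITM2 was 4146 ± 66.3 CPM, against 4255 ± 9.54 CPM for shCTRL (SD, n = 3), or 97.4% of the shCTRL value. Large subunit mRNAs summed to 2658 ± 62.0 CPM in shFITM2 and 2709 ± 9.8 CPM in shCTRL, and small subunit mRNAs to 1471 ± 5.75 CPM in shFITM2 and 1526 ± 20.4 CPM in shCTRL. The summed output thus lay slightly lower in every shFITM2 library than in any shCTRL library, a description of a sum over chosen genes and not a test. CPM is relative to the library, so less RNA per cell and fewer cells making the RNA cannot be told apart.

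Levels differed far more between members than between the groups. Per kilobase of exon length, tested members spanned 0.705 to 108.0 CPM per kb in shCTRL, with a median of 19.3. MRPS35, a small subunit protein without a bacterial counterpart, had 78.5 ± 2.44 CPM per kb in shFITM2 and 108.0 ± 3.5 in shCTRL (SD, n = 3), the highest mean in shCTRL. MRPL45, which lies at the exit of the peptide tunnel, followed with 80.6 ± 1.38 CPM per kb in shFITM2 and 100.0 ± 8.15 in shCTRL. MRPS34 had 141.0 ± 8.75 CPM per kb in shFITM2 and 95.8 ± 25.2 in shCTRL, the highest mean in shFITM2. In shCTRL these 3 means lay within the spread of MRPS34. MRPL37 came next with 63.3 ± 0.939 CPM per kb in shFITM2 and 65.6 ± 0.812 in shCTRL, and MRPL3, a conserved protein, had 45.7 ± 0.682 in shFITM2 and 61.5 ± 5.01 in shCTRL. In shCTRL these 2 means differed by less than the SD of MRPL3. At the low end stood MRPL38, of the central protuberance, with 0.678 ± 0.214 CPM per kb in shFITM2 and 0.705 ± 0.187 in shCTRL. MRPL46, also of the central protuberance, had 1.22 ± 0.191 CPM per kb in shFITM2 and 1.12 ± 0.214 in shCTRL, and MRPS28, of the small subunit, had 2.68 ± 0.279 in shFITM2 and 1.81 ± 0.19 in shCTRL. Same-strand genes with mean counts of 0.2 to 0.3 share 37.5% of the exon bases of MRPL38, 11.3% of MRPL46 and 35.8% of MRPS28. How reads in shared exons were counted is not given in the sources used here, and their part in these low levels was not tested. When the length of a single transcript replaced the exon union, 4 of the 5 highest members remained among the 5 highest. The order changed, and MRPL13 then had the highest mean in both groups, 157.2 CPM per kb in shFITM2 and 174.2 in shCTRL. MRPS35 then had 82.3 and 113.2, and MRPS34 148.8 and 101.1. At the low end MRPL38 stayed lowest of the tested members in shCTRL (1.37), while MRPL46 (7.04) rose above MRPL53 (3.06) and MRPS28 (3.86).

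**Figure D1:**
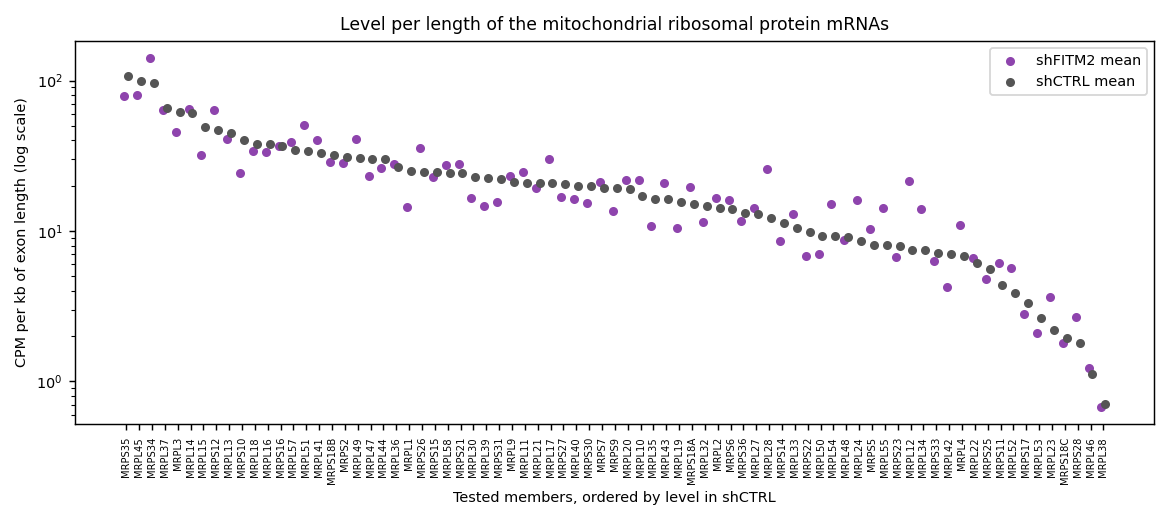
Mean level of the 77 tested members in shFITM2 (purple) and shCTRL (grey), in CPM per kb of exon length on a log scale, ordered by the shCTRL mean; each point is the mean of 3 libraries. The range in shCTRL runs from 0.705 to 108.0 CPM per kb, and neighbouring pairs of points are close for most members.

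Promoters of the members were read from RefSeq (GRCh38.p14) for the 69 members listed there. Each ran from 250 bases before to 50 after a listed start of transcription. A gene was counted where the promoter of any of its listed starts held the letters. The ETS-family letters CCGGAAG, searched on both strands, occurred in 30 of 69 members (43.5%) and in 16.5% of 15843 protein-coding genes. The YY1 letters AAGATGGCG occurred in 13 of 69 (18.8%) and in 3.21% of all. The NRF1 motif, searched in the same way, occurred in 1 member (1.45%) and in 1.99% of all. The last 3 letters of the ETS string are the first 3 of the YY1 string, so a single stretch can hold both. ETS factors, YY1 and NRF1 are known regulators of nuclear genes for mitochondrial proteins, and a match here is a string of letters, not a bound site. The 5 promoters below belong to members whose mRNA changed in both models (MRPL51 and MRPL52 higher, MRPS10 and MRPL42 lower in shFITM2) and to MRPL46, whose start lies 34 bases from that of the divergent member MRPS11. They are written 5′ to 3′ on the strand of the gene, with ETS or YY1 matches on either strand in capitals. They come from chr12:6493213-6493512 (minus strand, MRPL51), chr14:22829637-22829936 (plus, MRPL52), chr6:42217812-42218111 (minus, MRPS10), chr12:93467264-93467563 (plus, MRPL42) and chr15:88467339-88467638 (minus, MRPL46).
MRPL51: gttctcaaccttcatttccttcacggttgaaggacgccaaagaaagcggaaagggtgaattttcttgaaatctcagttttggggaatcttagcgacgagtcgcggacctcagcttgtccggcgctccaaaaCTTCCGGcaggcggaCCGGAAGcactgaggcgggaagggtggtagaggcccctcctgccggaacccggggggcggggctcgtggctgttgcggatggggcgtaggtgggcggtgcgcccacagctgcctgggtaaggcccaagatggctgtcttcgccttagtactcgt
MRPL52: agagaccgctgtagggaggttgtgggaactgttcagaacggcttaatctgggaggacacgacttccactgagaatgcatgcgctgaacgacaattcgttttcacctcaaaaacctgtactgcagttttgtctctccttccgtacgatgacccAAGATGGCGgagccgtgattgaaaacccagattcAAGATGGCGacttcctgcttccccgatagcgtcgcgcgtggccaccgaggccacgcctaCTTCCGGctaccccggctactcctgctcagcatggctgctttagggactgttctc
MRPS10: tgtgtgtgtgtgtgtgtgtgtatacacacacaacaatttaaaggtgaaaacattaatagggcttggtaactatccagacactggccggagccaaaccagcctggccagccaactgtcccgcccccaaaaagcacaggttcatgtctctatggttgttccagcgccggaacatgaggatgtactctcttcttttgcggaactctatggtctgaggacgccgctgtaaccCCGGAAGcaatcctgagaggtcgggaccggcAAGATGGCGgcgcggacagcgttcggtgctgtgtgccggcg
MRPL42: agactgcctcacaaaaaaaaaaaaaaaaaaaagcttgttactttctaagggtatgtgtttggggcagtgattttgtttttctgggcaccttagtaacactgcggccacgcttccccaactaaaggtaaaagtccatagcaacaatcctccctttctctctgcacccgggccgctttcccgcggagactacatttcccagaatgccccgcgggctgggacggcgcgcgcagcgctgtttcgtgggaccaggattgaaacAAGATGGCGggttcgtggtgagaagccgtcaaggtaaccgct
MRPL46: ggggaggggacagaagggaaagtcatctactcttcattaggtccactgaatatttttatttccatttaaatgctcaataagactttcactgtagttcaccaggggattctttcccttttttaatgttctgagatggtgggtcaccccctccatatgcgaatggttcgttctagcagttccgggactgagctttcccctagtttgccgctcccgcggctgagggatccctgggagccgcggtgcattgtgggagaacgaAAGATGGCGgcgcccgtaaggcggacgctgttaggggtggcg
MRPL51 holds 2 ETS matches, MRPL52 2 YY1 matches and 1 ETS match, and MRPS10 1 of each, while MRPL42 and MRPL46 each hold 1 YY1 match. In MRPS10, MRPL42 and MRPL46 the YY1 match lies close to the start. Apart from MRPL46, these promoters were chosen by the call of their mRNA, with both directions included. All 5 hold a match, whereas 40 of the 69 members hold any of the 3 motifs. Members called in both models without ETS or YY1 letters, such as MRPL1 and MRPL34, are not printed. The printed promoters therefore cannot show whether a motif goes with a direction, or how often called members hold one.

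After FITM2 knockdown the mRNAs of mitoribosomal proteins moved in both directions and by small amounts. In the model with the group alone, 19 of 77 tested members were called higher and 21 lower in shFITM2 (adjusted p under 0.05), which is 51.9% of them. Of all 14809 tested genes, 24.2% were called higher and 24.5% lower, 48.7% in either direction, so the share of members called was near that of all genes. With the GC offset, 14 members were called higher and 25 lower, or 50.6%. There the background over 14635 genes was 11.8% higher and 17.4% lower, 29.2% in either direction. Members had more counts than most genes, with a median of 47.2 CPM in shCTRL against 20.3 CPM over all tested genes, and the part of this level in the larger share called was not tested. The median log2 fold change of the members was -0.05 in both models, beside 0 and -0.027 over all tested genes. Fold changes ran from -0.80 to 1.52 on the log2 scale with the group alone and from -0.90 to 0.83 with the offset. The offset extremes, MRPL41 (-0.90 ± 0.45, adjusted p = 0.228) and MRPL12 (0.83 ± 0.299, adjusted p = 0.0955), were not called. Log2 fold changes of 1 or more in size were seen in 2 members with the group alone (MRPL12 and MRPL28) and in 0 with the offset, and sizes were under 0.5 in 52 and 60 members. Without the shCTRL 3 library the counts became 29 higher and 27 lower with the group alone, and 21 and 29 with the offset. With the offset, leaving out shFITM2 1 gave 8 higher and 15 lower, and leaving out shFITM2 2 gave 8 and 17. At least 1 left-out library ended 7 of the 40 calls made with the group alone and 16 of the 39 made with the offset.

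**Figure D2:**
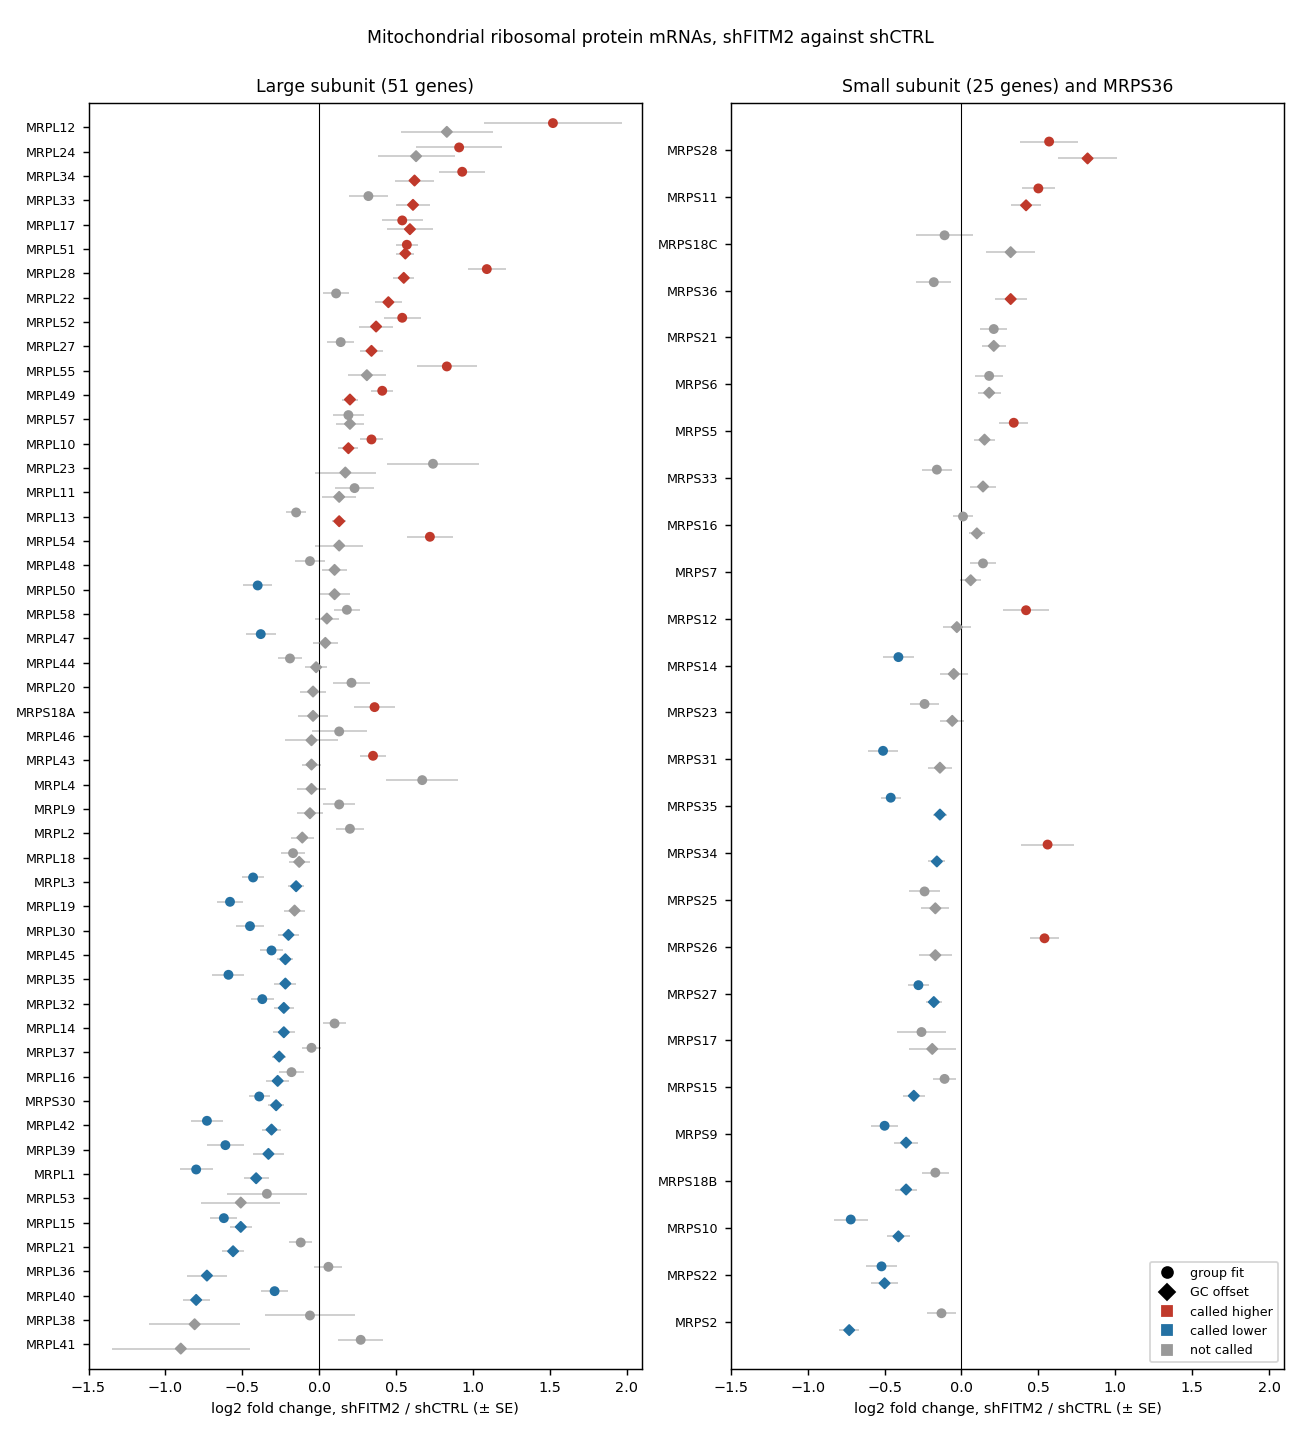
Log2 fold change of shFITM2 over shCTRL with its standard error for the 77 tested members, from the model with the group alone (circles) and with the GC offset (diamonds), ordered by the offset value; red and blue mark calls at an adjusted p under 0.05. Calls in both directions occur in each subunit, and the values run from -0.90 to 1.52.

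The members covered a wide range of transcript GC content, from 35% to 71.9% with a median of 48.9%, beside 48.7% over all tested genes. With the group alone, fold change and GC content had a Spearman correlation of 0.674 across the 77 members and 0.744 across all tested genes. Genes share the same 6 libraries and are not independent replicates, so this is a description. Among the 26 members of lowest GC, 1 was called higher and 15 lower. Among the 26 of middle GC, 6 were higher and 5 lower, and among the 25 of highest GC, 12 were higher and 1 lower. With the offset the correlation was -0.08, and the counts were 6 higher and 10 lower, 5 and 7, and 3 and 8. In all, 25 members kept their call and direction across the models, 9 higher and 16 lower. MRPS34 was called in opposite directions, 14 members were called with the group alone, 13 with the offset alone and 24 in neither.

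**Figure D3:**
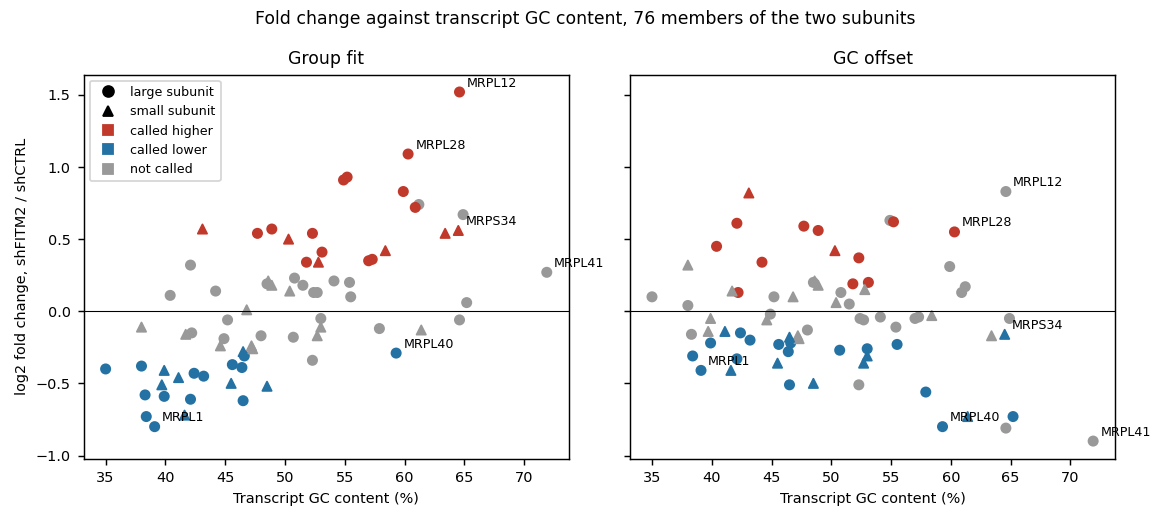
Log2 fold change of shFITM2 over shCTRL against transcript GC content (percent) for the 76 tested members of the large (circles) and small (triangles) subunits, with the group alone (left) and with the GC offset (right); red and blue mark calls higher and lower. The upward slope at left, a Spearman correlation of 0.674 over the 77 tested members including MRPS36, is -0.08 at right.

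Of the 9 members called higher in both models, 7 belong to the large subunit, which holds 51 of the 77 tested members. MRPL51 (ENSG00000111639, chr12:6491886-6493841, minus strand), a large subunit protein without a bacterial counterpart, had 78.6, 80.5 and 75.3 CPM in shFITM2, against 54.0, 52.0 and 51.6 CPM in shCTRL. Every shFITM2 library lay above every shCTRL library. Its log2 fold change was 0.57 ± 0.0724 (adjusted p = 0.000143) and 0.56 ± 0.0593 with the offset (adjusted p = 6.12e-06), nearly the same in both models. NCAPD2, on the opposite strand, shares 31.3% of its exon bases and had 4.61 times its reads, and the strand setting of the counting is not given in the sources used here. MRPL28 (ENSG00000086504, chr16:366969-371289, minus strand), the counterpart of bacterial L28, had 85.0, 80.7 and 71.3 CPM in shFITM2, against 34.7, 31.8 and 44.8 CPM in shCTRL. The groups were well apart, with log2 fold changes of 1.09 ± 0.124 (adjusted p = 0.000115) and, with the offset, 0.55 ± 0.0696 (adjusted p = 3.27e-05). TMEM8A, on the same strand, overlaps 7.3% of its exon bases with 2.42 times its reads. MRPL34 (ENSG00000130312, chr19:17292609-17306843, plus strand), among the smallest proteins of the subunit, had 23.3, 24.9 and 23.2 CPM in shFITM2, against 14.2, 9.2 and 14.2 CPM in shCTRL. It gave 0.93 ± 0.151 (adjusted p = 0.000592) and 0.62 ± 0.126 with the offset (adjusted p = 0.00186), and no library crossed between the groups.

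MRPL17, a protein near the exit of the peptide tunnel, had 70.9, 69.5 and 66.1 CPM in shFITM2, against 41.9, 40.6 and 59.1 CPM in shCTRL. The shCTRL 3 library was the closest to shFITM2. The log2 fold change was 0.54 ± 0.132 (adjusted p = 0.00721), and the call with the offset (0.59 ± 0.152, adjusted p = 0.0288) was lost when any library but shCTRL 3 was left out. MRPL49 had 125.8 ± 7.43 CPM in shFITM2 and 94.6 ± 1.33 in shCTRL (log2 fold change 0.41, and 0.20 with the offset), and overlaps FAU, which had 2.77 times its reads, over 9.2% of its exon bases. MRPL52 had 18.1 ± 1.68 CPM in shFITM2 and 12.5 ± 1.29 in shCTRL (0.54 and 0.37). The offset calls of both were lost in turn without shCTRL 1, shFITM2 1 or shFITM2 2, and that of MRPL52 also without shCTRL 2. Of the small subunit, MRPS11 had 34.6, 39.2 and 30.2 CPM in shFITM2, against 24.3, 23.7 and 25.6 CPM in shCTRL. All shFITM2 values were higher, and the calls held (0.50, adjusted p = 0.0027, and 0.42, adjusted p = 0.00323). MRPS28 had 5.27, 5.06 and 4.31 CPM in shFITM2, against 3.29, 3.62 and 2.93 CPM in shCTRL, separate groups at a low level. Its 0.57 ± 0.187 (adjusted p = 0.0251) lost the call without shCTRL 1, shFITM2 1 or shFITM2 2, while 0.82 ± 0.19 with the offset (adjusted p = 0.00395) kept it. MRPL10 was the other member called higher in both (0.34 alone and 0.19 with the offset), and its offset call held only without shCTRL 2.

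Members called lower in both models included proteins of either subunit. MRPL1 (ENSG00000169288, chr4:77862520-77952790, plus strand), the protein of the mobile stalk beside the tRNA exit site, had 24.7, 30.2 and 29.2 CPM in shFITM2, against 51.8, 51.4 and 43.1 CPM in shCTRL. Its highest shFITM2 library lay well under its lowest shCTRL library. It had the lowest fold change of all members with the group alone, -0.80 ± 0.107 (adjusted p = 0.000194), and -0.41 ± 0.0811 with the offset (adjusted p = 0.00142). MRPL42 (ENSG00000198015, chr12:93467488-93516213, plus strand), without a bacterial counterpart, had 65.3, 69.2 and 74.1 CPM in shFITM2, against 117.4, 131.9 and 96.8 CPM in shCTRL. The groups did not overlap, at -0.73 ± 0.106 (adjusted p = 0.000326) and -0.31 ± 0.0624 (adjusted p = 0.00137). MRPS10 (ENSG00000048544, chr6:42206801-42217865, minus strand), a protein of the small subunit head, had 47.5, 53.8 and 52.8 CPM in shFITM2, against 91.1, 93.0 and 69.9 CPM in shCTRL. It gave -0.72 ± 0.109 (adjusted p = 0.000395) and -0.41 ± 0.0751 (adjusted p = 0.000818), again with separate groups. The YY1 letters in the promoters of MRPL42 and MRPS10 are those printed above. Those promoters were chosen by the call of their mRNA, and all that were printed hold a match.

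MRPL15, a conserved protein of the large subunit, had 37.5, 40.8 and 36.7 CPM in shFITM2, against 60.7, 62.1 and 53.8 CPM in shCTRL. Its fold changes differed little between the models, at -0.62 ± 0.0877 (adjusted p = 0.000262) and -0.51 ± 0.0726 (adjusted p = 8.38e-05). MRPS22, in which inherited mutations cause a mitochondrial disease, had 37.3, 36.4 and 36.9 CPM in shFITM2, against 49.3, 60.9 and 47.8 CPM in shCTRL. It too was similar across the models (-0.52, adjusted p = 0.00157, and -0.50, adjusted p = 0.000535), and COPB2, with 3.68 times its reads, overlaps 1.6% of its exon bases. MRPL40, of the central protuberance, had 33.0, 32.3 and 30.9 CPM in shFITM2, against 42.1, 36.9 and 38.9 CPM in shCTRL. In contrast to most members that fell, it has a high GC content of 59.3%, and its fold change was -0.29 ± 0.0875 (adjusted p = 0.016) with the group alone and -0.80 ± 0.0873 (adjusted p = 8.11e-06) with the offset. Without shCTRL 1, shFITM2 2 or shFITM2 3 the group-alone call of MRPL40 was lost (adjusted p up to 0.0743). MRPS9 had 26.1 ± 0.668 CPM in shFITM2 and 37.0 ± 2.08 in shCTRL (-0.50 and -0.36). MRPL39 had 17.6 ± 1.66 CPM in shFITM2 and 27.0 ± 3.43 in shCTRL (-0.61 and -0.33), and its offset call was lost without shCTRL 1, shFITM2 1 or shFITM2 2. The abundant MRPS35, MRPL45 and MRPL3 were also called lower in both models, with log2 fold changes of -0.46, -0.31 and -0.43 alone and -0.14, -0.22 and -0.15 with the offset. The offset call of MRPL3 held only without shCTRL 3, and that of MRPS35 only without shCTRL 2 or shCTRL 3. MRPL30, MRPL32, MRPL35, MRPS27 and MRPS30 complete this set, at -0.59 to -0.28 alone and -0.28 to -0.18 with the offset. The offset calls of MRPL30 and MRPL35 held only without shCTRL 3, that of MRPL32 was lost without shFITM2 1 or shFITM2 2, and that of MRPS27 without shFITM2 1 or shFITM2 3.

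**Figure D4:**
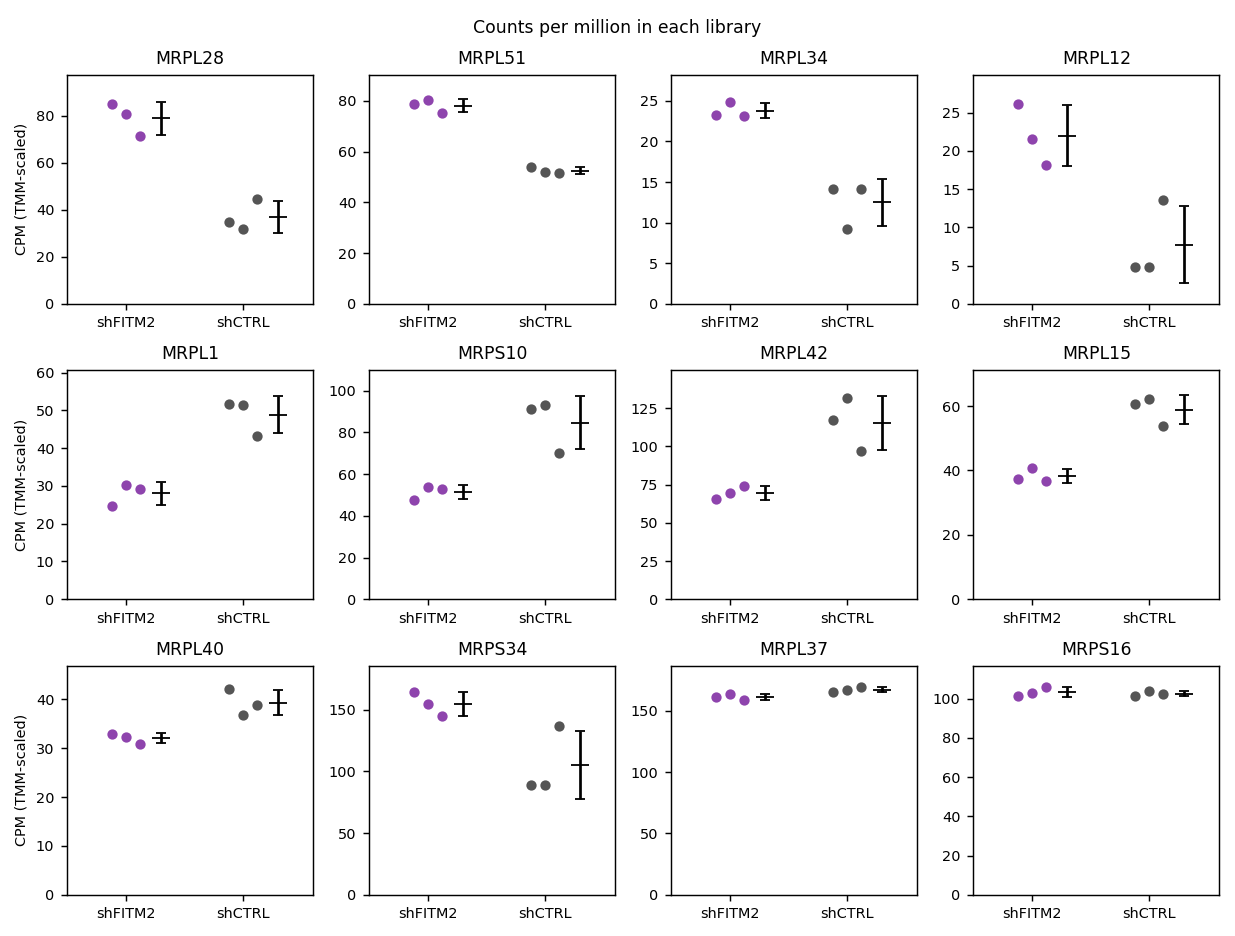
CPM of 12 members in each library (points, replicates 1 to 3 from left to right) for shFITM2 (purple, left) and shCTRL (grey, right), with the mean and SD at the side of each group; every axis starts at 0. MRPL28, MRPL51, MRPL34 and MRPL12 are higher and MRPL1, MRPS10, MRPL42, MRPL15 and MRPL40 lower in every shFITM2 library, and for MRPS34 and MRPL12 the shCTRL 3 library lies nearer to shFITM2.

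MRPS34 (ENSG00000074071, chr16:1771890-1773155, minus strand), a small subunit protein without a bacterial counterpart, was the member called in opposite directions. The sign of the fold change differed between the models in 20 members, and in MRPS34 both values were called. It had 164.4, 154.6 and 145.2 CPM in shFITM2, against 89.3, 89.1 and 137.0 CPM in shCTRL. All shFITM2 libraries lay above all shCTRL libraries, and the gap to shCTRL 3 was small. The log2 fold change was 0.56 ± 0.171 (adjusted p = 0.0306) alone and -0.16 ± 0.0553 (adjusted p = 0.0362) with the offset, at a GC content of 64.5%. Without shCTRL 3 these were 0.79 and -0.12. The call with the group alone was lost without shCTRL 1, shCTRL 2, shFITM2 1 or shFITM2 2, and the call with the offset without any one shFITM2 library.

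The largest fold change with the group alone belonged to MRPL12 (ENSG00000262814, chr17:81703357-81707526, plus strand), the stalk protein that also binds the mitochondrial RNA polymerase. It had 26.1, 21.6 and 18.2 CPM in shFITM2, against 4.77, 4.81 and 13.6 CPM in shCTRL. The shCTRL 3 library lay between the shFITM2 libraries and the other two of its group. The log2 fold change was 1.52 ± 0.447 (adjusted p = 0.0372) alone and 0.83 ± 0.299 (adjusted p = 0.0955) with the offset, and 2.19 and 1.28 without shCTRL 3. Leaving out shCTRL 1, shCTRL 2, shFITM2 1 or shFITM2 2 ended the group-alone call. AC139530.2, on the same strand, shares 68.2% of the exon bases of MRPL12 and had a mean of 0.0 counts. How reads in these shared bases were counted is not given, and their part in the counts of MRPL12 was not tested. MRPL24, a conserved protein of the large subunit, had the same shape as MRPL12, with 30.4, 27.0 and 24.7 CPM in shFITM2, against 12.6, 9.68 and 21.5 CPM in shCTRL. It gave 0.91 alone and 0.63 with the offset, was called only in the first model, and lost that call in turn without shCTRL 1 and without each shFITM2 library. MRPL55 had 26.9 ± 1.74 CPM in shFITM2 and 15.2 ± 4.91 in shCTRL, with 0.83 (adjusted p = 0.00766) alone and 0.31 (adjusted p = 0.0714) with the offset. MRPL54 had 15.2 ± 2.83 CPM in shFITM2 and 9.25 ± 0.851 in shCTRL, with 0.72 (adjusted p = 0.00236) and 0.13 (adjusted p = 0.603). MRPL43, MRPS5, MRPS12 and MRPS26 were also called higher with the group alone, at 0.34 to 0.54, and the call of MRPS12 held only without shCTRL 3.

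Among members of low GC content, MRPL19, MRPS31, MRPS14, MRPL50 and MRPL47 were called lower with the group alone. MRPL19 had 47.8 ± 1.21 CPM in shFITM2 and 71.3 ± 6.46 in shCTRL, with -0.58 alone and -0.16 with the offset. MRPS31 had 32.9 ± 2.61 CPM in shFITM2 and 46.9 ± 3.8 in shCTRL, with -0.51 and -0.14. MRPS14 and MRPL50 gave -0.41 and -0.40 alone, and -0.05 and 0.10 with the offset, so MRPL50 took the opposite sign there without a call. MRPS14 overlaps CACYBP, which had 4.85 times its reads, over 13.5% of its exon bases. The 5 members called higher with the offset alone were MRPL33, MRPL22, MRPL27, MRPL13 and MRPS36, named after their values were seen, at 0.13 to 0.61. The 8 called lower there, at -0.73 to -0.23, included the abundant MRPL37. Of these 13 calls, those of MRPL13 and MRPL14 held only without shCTRL 3, that of MRPS36 only without shCTRL 1 or shCTRL 3, and that of MRPL16 was lost without shFITM2 1 or shFITM2 3. MRPL37 had 161.1, 163.8 and 159.1 CPM in shFITM2, against 165.3, 167.3 and 169.4 CPM in shCTRL. Its libraries were tightly grouped, at -0.05 ± 0.0614 (adjusted p = 0.503) alone and -0.26 ± 0.0465 (adjusted p = 0.000618) with the offset. MRPL38 and MRPL46, the least abundant of their subunit per kb of exon length, had overlapping groups and no call in either model. The 24 members without a call in either model ranged from -0.34 to 0.74 alone and from -0.90 to 0.32 with the offset. Among them MRPS16, a conserved small subunit protein, had 101.2, 102.8 and 105.9 CPM in shFITM2, against 101.4, 103.7 and 102.4 CPM in shCTRL, and its log2 fold change of 0.01 ± 0.0655 was smaller than its error.

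By role, calls went both ways in each class of protein with the group alone. Of the 30 large subunit proteins with bacterial counterparts, 7 were higher and 8 lower alone, and 8 and 10 with the offset. Of the 21 large subunit proteins specific to mitochondria, 6 were higher and 6 lower alone, and 3 and 6 with the offset. Of the 15 tested small subunit proteins with bacterial counterparts, 4 were higher and 3 lower alone, and 2 and 4 with the offset. The 10 small subunit proteins specific to mitochondria gave 2 higher and 4 lower alone, and 0 higher and 5 lower with the offset. The shares called in these classes ran from 46.7% to 60% alone and from 40.0% to 60% with the offset. Over all tested genes the shares were 48.7% alone and 29.2% with the offset. These counts and shares are descriptions, and differences between the classes, or from all tested genes, were not tested. The 30 members with ETS letters in the promoter gave 9 higher and 7 lower alone and 5 and 7 with the offset, beside 8 and 12, and 5 and 15, among the 38 tested members without them. Among the 12 tested members with YY1 letters, 2 were higher and 5 lower alone, and 2 and 6 with the offset. The 56 tested members without them gave 15 higher and 14 lower alone, and 8 and 16 with the offset. The shares called were 58.3% and 66.7% with YY1 letters, and 51.8% and 42.9% without. For ETS letters they were 53.3% and 40.0% with, and 52.6% and 52.6% without. Differences between members with and without a motif were not tested.

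The paralogs MRPS18A, MRPS18B and MRPS18C descend from the same bacterial protein and take different places in the mitoribosome. In the classes above, only MRPS18C was counted as having a bacterial counterpart, and MRPS18A and MRPS18B as specific to mitochondria. MRPS18A, of the large subunit, had 24.3, 27.5 and 23.7 CPM in shFITM2, against 18.5, 16.6 and 23.7 CPM in shCTRL. The lowest shFITM2 library was level with shCTRL 3, and its call (0.36 ± 0.132, adjusted p = 0.0389) was lost without any library but shCTRL 3 and with the offset (-0.04). MRPS18B had 56.5, 48.7 and 56.6 CPM in shFITM2, against 58.2, 59.4 and 64.1 CPM in shCTRL. It was not called alone (-0.17, adjusted p = 0.131) and was called lower with the offset (-0.36, adjusted p = 0.00126). MRPS18C had 9.17, 9.03 and 8.26 CPM in shFITM2, against 11.7, 10.2 and 6.63 CPM in shCTRL. The groups overlapped and neither model called it. ABRAXAS1, on the opposite strand, shares 40.2% of its exon bases and had 1.1 times its reads.

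Of the 5 mitoribosomal proteins with other symbols, 2 were higher and 2 lower in either model. AURKAIP1, of the small subunit, had 133.2, 143.2 and 129.7 CPM in shFITM2, against 53.6, 42.7 and 87.6 CPM in shCTRL, with 1.14 ± 0.269 (adjusted p = 0.0169) alone and 0.30 ± 0.071 (adjusted p = 0.00551) with the offset. CHCHD1 had 40.1 ± 0.745 CPM in shFITM2 and 32.6 ± 3.83 in shCTRL (0.30 and 0.50), and its group-alone call was lost without any library but shCTRL 3. PTCD3, which lies at the mRNA entry, had 87.7, 84.4 and 89.6 CPM in shFITM2, against 132.8, 141.3 and 126.9 CPM in shCTRL. It was clearly separated, at -0.62 ± 0.0709 (adjusted p = 8.97e-05) and -0.37 ± 0.0504 (adjusted p = 6.5e-05). DAP3, the GTP-binding protein of the small subunit, was lower alone (-0.18, adjusted p = 0.0359, lost without any library but shCTRL 3) and not called with the offset. GADD45GIP1 was not called alone (0.02, adjusted p = 0.89) and was lower with the offset (-0.52, adjusted p = 6.96e-05).

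Factors that serve the mitoribosome were set beside its proteins. Of 17 genes listed as translation factors, 2 were higher and 7 lower alone, and 0 and 5 with the offset. The list was taken broadly and includes LRPPRC, SLIRP, OXA1L and MTFMT. The shares called, 52.9% and 29.4%, were near the 48.7% and 29.2% of all tested genes. The offset count of lower factors ranged from 2 to 6 with 1 library left out, and was 3 without shCTRL 1, shCTRL 2 or shFITM2 3 and 2 without shFITM2 1 or shFITM2 2. The group-alone count of lower factors was 11 without shCTRL 3. LRPPRC, which stabilises mitochondrial mRNAs, had 242.7, 246.5 and 252.0 CPM in shFITM2, against 409.6, 442.0 and 336.5 CPM in shCTRL. It fell by 0.68 on the log2 scale alone (adjusted p = 0.000186) and by 0.40 with the offset (adjusted p = 0.000107). GFM1, an elongation factor, fell by 0.62 and 0.30, and GUF1, a translation GTPase, and MTRF1, a release factor, were also lower in both models. The offset call of GUF1 was lost without shFITM2 1 or shFITM2 2, and that of MTRF1 held only without shCTRL 3. Of 27 assembly and rRNA modification factors, 8 were higher and 5 lower alone, and 3 and 9 with the offset, or 48.1% and 44.4% called. RCC1L, named after its values were seen, was called higher alone (0.28, adjusted p = 0.0208) and lower with the offset (-0.22, adjusted p = 0.00702). Its call alone held only without shCTRL 3, and its offset call was lost without shFITM2 1. Without shFITM2 1, 3 were higher alone and 5 lower with the offset, and without shCTRL 1, 5 were higher alone. FASTKD2, an RNA-binding protein of mitochondrial RNA granules, had 30.8 ± 1.58 CPM in shFITM2 and 56.6 ± 7.12 in shCTRL and fell in both models (-0.88 and -0.49). The large subunit factors NGRN and TRUB2 were higher in both (0.28 and 0.41, and 0.42 and 0.28), and the NGRN call alone was lost without shCTRL 1 or shFITM2 1. MALSU1 was higher (0.43), and the helicases DHX30 and DDX28 (-0.53 and -0.56) and the rRNA chaperone ERAL1 (-0.37) were lower, with the offset alone. Of 81 tested cytosolic ribosomal proteins, 36 were higher and 10 lower alone and 25 and 11 with the offset, with median log2 fold changes of 0.22 and 0.13 beside -0.05 for the mitochondrial set in both models. Left-out libraries moved these counts to 22 to 46 higher and 5 to 27 lower alone, and to 15 to 39 higher and 8 to 19 lower with the offset, and the difference between the sets was not tested.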

How the data were processed

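The authors deposited a table of raw read counts, with 1 row per gene and 1 column for each of 6 RNA-seq libraries. Trizol-extracted RNA went into a strand-keeping NEBNext library kit, per the labels' protocols. HISAT2 2.0.5, StringTie 1.3.3b, featureCounts 1.5.0-p3, DESeq2 1.16.1 and the genome hg19 are named per the submitters' processing notes, without their roles. The positions of all 78 members in the table are those of GRCh38 in GENCODE, so coordinates are given on GRCh38.

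Genes passed the edgeR expression filter (minimum count 10, minimum total 15) and were tested with the quasi-likelihood F-test of edgeR 4.0.16 (limma 3.58.1, R 4.3.3, robust, TMM). P-values were adjusted by Benjamini-Hochberg over all tested genes, and calls needed an adjusted p under 0.05. For the GC offset, the log2 deviation of every gene in a library was smoothed against the GC content of 1 transcript (spline, 6 degrees of freedom). Available GC values covered 98.8% of tested genes. The scripts were checked on simulated counts. Fold changes are log2 of shFITM2 over shCTRL with their standard error, levels are mean ± SD of 3 libraries, and counting error is part of that spread.

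Replicates of a group differed beyond sampling noise (chi-square per gene 2.32 to 28.3), so each was counted. Groups and numbers came from the titles. Alternatives were DESeq2 size factors or library totals, no filter, the DESeq2 1.42.0 Wald test, an adjusted p under 0.01, other GC offsets, the replicate number as a block, and each library left out. The offset with library totals was chosen after seeing the data.

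The members and lists were chosen with earlier results of these data known. Named members were those called alike in both models (up to 8 per direction by offset fold change), called in opposite directions, highest (5) or lowest (3) per length, called with the group alone (up to 4 per direction), the MRPS18 paralogs, members that failed the filter, proteins with other symbols, and up to 4 factors per direction and list.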

Additional observations from a re-analysis of the deposited data

How the results depend on the processing

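For the members, DESeq2 size factors, library totals, no expression filter, the DESeq2 Wald test and GC offsets with length, with another transcript choice or with other scaling kept every count within 1.5 times that reported. At an adjusted p under 0.01, 12 members were higher alone, and 8 higher and 15 lower with the offset. With 1 library left out, 13 to 29 members were higher and 20 to 27 lower alone, and 8 to 21 and 15 to 29 with the offset, and the median log2 fold change ranged from -0.05 to 0.05 (highest without shCTRL 1) and from -0.08 to -0.04. Of the proteins with other symbols, 1 was higher without a filter, and 1 was lower without a filter, with the Wald test or with the replicate block. Left-out libraries gave 1 to 3 higher and 1 to 2 lower alone. Under the GC offset, 0 translation factors were higher, and 3 assembly factors were higher and 9 lower. Left-out ranges for translation factors were 1 to 2 higher and 7 to 11 lower alone, and 0 to 1 and 2 to 6 with the offset. For assembly factors they were 3 to 10 higher alone and 5 to 12 lower with the offset. For cytosolic ribosomal proteins they were 22 to 46 higher and 5 to 27 lower alone, and 15 to 39 and 8 to 19 with the offset. In all, 20 members changed sign with the offset, whose construction removes the GC trend. Among genes given in full, the log2 fold changes of DHX30 (-0.53), GADD45GIP1 (-0.52), MRPL50 (0.10), MRPS18A (-0.04) and MRPS34 (-0.16) took the opposite sign with a call in at least 1 model. Those of RCC1L (-0.22) and MRPS36 (0.32) did so as well, while MRPS18C and MRPL46 did so without a call. TRUB2 (0.07), MRPL49 (0.11), MRPL52 (0.25) and MRPS35 (-0.10) lost their offset calls with the median GC of all transcripts of a gene, and for other changes the cause was not tested.

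Replicate numbers did not pair the libraries (correlations of same-numbered deviations -0.041, -0.007 and -0.065). With the replicate number as a block, 21 members were higher and 21 lower alone, and 14 and 24 with the offset, and 1 translation factor was higher with the offset. Without an expression filter the call of AURKAIP1 was lost. Members under about 10 CPM, such as MRPS24, MRPL38 and MRPL46, had too few counts for small changes to be detectable.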

Other observations

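The rRNAs around which the mitoribosome is built come from the mitochondrial genome. MT-RNR2, the large subunit rRNA, had 6785.6, 7071.9 and 7199.8 CPM in shFITM2, against 6972.4, 6645 and 6602 CPM in shCTRL. The groups overlapped with the group alone (0.06 ± 0.0564, adjusted p = 0.415), and with the GC offset it was called higher (0.32 ± 0.0458, adjusted p = 0.000102). MT-RNR1, the small subunit rRNA, had 627.9, 662.5 and 715.8 CPM in shFITM2, against 540.6, 448.3 and 667.8 CPM in shCTRL, and was called in neither model (adjusted p = 0.126 and 0.181). Per kb of exon length, MT-RNR2 had a mean of 4323.2 CPM in shCTRL and MT-RNR1 578.9 CPM. How evenly the libraries recovered these rRNAs was not tested, so the counts are not a measure of rRNA in mitoribosomes.

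MRPS36, whose protein is counted with the 2-oxoglutarate dehydrogenase complex, had 16.3, 18.3 and 18.6 CPM in shFITM2, against 22.5, 19.4 and 18.2 CPM in shCTRL. Its fold change was -0.18 (adjusted p = 0.214) with the group alone, and with the offset it was called in the opposite direction, higher (0.32 ± 0.103, adjusted p = 0.0263). That call held only without shCTRL 1 or shCTRL 3. Many members share their upstream region with another gene. A divergent gene starting within 1000 bases upstream or 200 bases inside was found for 19 of 78 members (24.4%), and for 8.82% of 19951 protein-coding genes. MRPL46 and MRPS11 are the pair in which both genes are members. MRPL46 had 9.0, 6.56 and 8.02 CPM in shFITM2, against 6.78, 8.71 and 6.04 CPM in shCTRL, and was not called, while MRPS11 was higher in both models.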
